A study of Mus musculus with 8 samples.

Results

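Trp53, the gene of the tumour suppressor p53, and 9 genes that p53 is known to switch on were followed in mouse undifferentiated pleomorphic sarcomas (UPS), 10 of the 26667 genes in the counts table. The 10 genes were chosen by name: Trp53 itself, Mdm2, Cdkn1a, Bax, Ccng1, Phlda3, Zmat3, Eda2r, Trp53inp1 and Bbc3. UPS is a soft tissue sarcoma without a recognisable line of differentiation. The KP group (4 tumours, KP 5 to KP 8) carried Trp53 fl/fl, and the KPH2 group (4 tumours, KPH2 1 to KPH2 4) carried Trp53 fl/fl together with Epas1 fl/fl, where Epas1 encodes the hypoxia-inducible factor HIF-2α. The mice were on a mixed 129 and C57BL/6 background, of both sexes and at least 8 weeks old when adenovirus expressing Cre was injected into a hind limb muscle, and tumours were taken 7 weeks later or at the maximal permitted size. Cre acts in the cells that the virus infects, so Trp53 was deleted in the tumour cells of both groups, while vessels, immune cells, fibroblasts and muscle of the host kept it. No tumour with intact Trp53 was among the samples. RNA came from formalin-fixed, paraffin-embedded (FFPE) sections, with 1 library per tumour, and the measurement was the number of reads per gene.

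p53 is a transcription factor that is held at a low level by the ubiquitin ligase Mdm2 and is freed by DNA damage, oncogene signalling and other stresses. It then binds a pair of adjacent copies of a short motif near its target genes and raises their transcription. Its targets include brakes on the cell cycle, of which Cdkn1a (encoding p21, an inhibitor of cyclin-dependent kinases) is the best known, promoters of cell death such as Bax and Bbc3, and its own inhibitor Mdm2, which closes a feedback loop. Many of these genes are also transcribed without p53, and Cdkn1a is switched on in muscle cells that leave the cell cycle as they differentiate. Loss of p53 is a frequent event in UPS.

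The sequence that p53 reads was looked for in the promoters of the 10 genes. In the RefSeq promoter windows of GRCm38.p6, which run from 250 bases before to 50 bases after a start, a p53 consensus site (the adjacent pair of motifs, with the C and G of each CNNG core kept and at most 2 mismatches elsewhere) was found in 107 of 32851 windows, or 0.326%. The consensus reads the same on both strands. Windows were given for 8 of the 10 genes, 11 windows in all, so Zmat3 and Trp53inp1 were not scanned. A site with 1 mismatch lay in a window of Cdkn1a and in that of Ccng1, and the other window of Cdkn1a, at its downstream start, held none. The Cdkn1a site is at chr17:29090928-29090947 on the + strand and begins 51 bases before the upstream start of the gene. The Ccng1 site is at chr11:40755462-40755481 on the − strand and begins 195 bases before the start of the window's transcript at 40755286, which lies inside the outer end of the gene as annotated (40755309). The sites are printed 5′ to 3′ with the CNNG cores in capitals, followed by the 250 bases before each start with the whole site in capitals, since these are the windows of the genes that held a match.
Cdkn1a site: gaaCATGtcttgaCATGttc
Ccng1 site: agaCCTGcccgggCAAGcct
Cdkn1a, chr17:29090729-29090978, + strand: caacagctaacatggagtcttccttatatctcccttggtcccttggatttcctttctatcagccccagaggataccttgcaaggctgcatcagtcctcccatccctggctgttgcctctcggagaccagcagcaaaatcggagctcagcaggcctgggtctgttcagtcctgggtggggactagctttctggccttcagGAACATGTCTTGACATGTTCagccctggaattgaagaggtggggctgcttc
Ccng1, chr11:40755287-40755536, − strand: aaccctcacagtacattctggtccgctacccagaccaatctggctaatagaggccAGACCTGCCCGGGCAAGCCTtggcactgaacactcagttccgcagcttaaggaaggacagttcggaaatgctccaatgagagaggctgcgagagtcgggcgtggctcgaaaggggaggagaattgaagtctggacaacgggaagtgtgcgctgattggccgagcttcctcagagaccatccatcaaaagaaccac
A match of this kind describes the letters only, and the other windows not holding one says nothing about where p53 binds, since many p53 sites lie in introns or farther away.

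Total counts per tumour ran from 6463221 to 13155510, and the most abundant gene took between 1.40% and 9.83% of them. The ribosomal RNA row Rn45s took 1.08% to 2.79% of the counts in KP tumours and 3.58% to 9.83% in KPH2 tumours, KPH2 1 included, and its part in the results below was not tested. By principal components, the study judged a knockout tumour to be a technical outlier and set it aside. KPH2 1 is the tumour that is absent from the authors' 7-tumour table of normalized values, and it stood apart from KPH2 2, 3 and 4 in several results below. Its values are therefore given apart, and the comparison of 7 tumours (4 KP, 3 KPH2) is given beside that of all 8. Epas1 (Entrez 13819), the gene deleted only in KPH2, was at 59.2, 83.2, 86.9 and 84.1 CPM (counts per 1000000) in KP 5 to KP 8. It was at 53.4, 37.7 and 42.5 CPM in KPH2 2 to KPH2 4 and at 32.6 CPM in KPH2 1, so that every KPH2 tumour was below every KP tumour. The log2 fold change was −0.81 (SE 0.19) over 7 tumours, with an edgeR adjusted p of 0.0742, and DESeq2 called it over 7 tumours (adjusted p = 0.0115) and over 8 (adjusted p = 0.00562). Markers of skeletal muscle differed most among the tissue lists: their summed level was 1860 to 3391 CPM in KP tumours, 4399 to 19812 CPM in KPH2 2 to KPH2 4 and 1528 CPM in KPH2 1, and all 30 had a higher mean in KPH2 2 to KPH2 4 with a median log2 fold change of 2.22. The adjusted threshold was passed by 3 of these over 7 tumours and by 0 over all 8. Over 7 tumours 1.24% of all tested genes passed it as higher. The 3 were Eno3, Neb and Myoz2 (edgeR adjusted p of 0.00922, 0.043 and 0.0418). With KP tumours at 0.593 to 1.28 CPM, Myoz2 entered the test mainly through the tumours where it is high. At an edgeR unadjusted p under 0.05, 29 markers were higher over 7 tumours and 21 over 8, beside 8.5% and 6.65% of all tested genes. Of the 10 macrophage markers all had a lower mean in KPH2 2 to KPH2 4 (median log2 fold change −0.58). As lower, 0 were called and 4 passed an edgeR unadjusted p under 0.05, beside 0.72% and 9.26% of all tested genes. Their summed level was 2437 to 4427 CPM in KP tumours, 1780 to 2671 CPM in KPH2 2 to KPH2 4 and 2296 CPM in KPH2 1. Of the 10 endothelial markers 9 had a negative log2 fold change (median of the list −0.59). Here 0 were called and 5 were lower at an edgeR unadjusted p under 0.05, beside the same 0.72% and 9.26%. The sums were 380.5 to 660.8, 359.3 to 363.9 and 276.5 CPM in the same order. The T cell and mesenchymal lists had medians of −0.61 and −0.42, and among their 20 genes the fibroblast receptor gene Pdgfra fell (log2 fold change −2.02, SE 0.27, edgeR adjusted p = 0.0183). KPH2 1 was at 639 CPM of Pdgfra, beside 224 to 274 CPM in KPH2 2 to KPH2 4 and 720 to 1494 CPM in KP tumours, and over all 8 tumours the call was lost (log2 fold change −1.54, edgeR adjusted p = 0.16). None of the muscle, macrophage, T cell, endothelial or mesenchymal markers was at 0 counts in any tumour. In bulk RNA, fewer cells of a type and less RNA per cell cannot be told apart, and this holds for each level below.

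None of the 10 genes passed an adjusted p of 0.05 between KPH2 and KP tumours, either over 7 tumours (14867 genes tested) or over all 8. The test was edgeR's quasi-likelihood test, and p-values were adjusted after Benjamini and Hochberg. Trp53 stayed within a narrow range in all tumours. Of the targets, Cdkn1a, Eda2r and Trp53inp1 were higher in each of KPH2 2, 3 and 4 than in any KP tumour, by 2.17-fold, 1.73-fold and 1.23-fold in the means, while none of these was higher in KPH2 1. The remaining targets, among them Mdm2, Bax, Ccng1, Zmat3 and Bbc3, overlapped between the groups.

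Read against the whole transcriptome over 7 tumours, 1.24% of tested genes passed the adjusted threshold as higher in KPH2 and 0.72% as lower (1.96% in either direction), against 0 and 0 of the 10. At an unadjusted p under 0.05, 2 of the 10 (Cdkn1a and Eda2r) were higher and 0 were lower, against 8.5% and 9.26% of all tested genes. The groups did not overlap for 3 of the 10, all higher in KPH2, against 8.73% of tested genes higher and 8.15% lower. DESeq2 on the same 7 tumours called 1 of the 10, Cdkn1a, as higher, where it called 3.77% of 16315 genes as higher and 7.2% in either direction, and limma on the authors' normalized values called 0 of the 10, where it called 2.17% of 14867 genes. Over all 8 tumours 0 of the 10 did not overlap (3.76% of tested genes higher, 4.39% lower), 0 of the 10 passed an unadjusted p under 0.05 (6.65% of tested genes higher, 14.7% in either direction), and the adjusted threshold was passed by 0.00675% of tested genes. The median log2 fold change of the 10 was 0.03 over both sets of tumours, beside −0.02 and 0.01 over all tested genes.

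**Figure D1:**
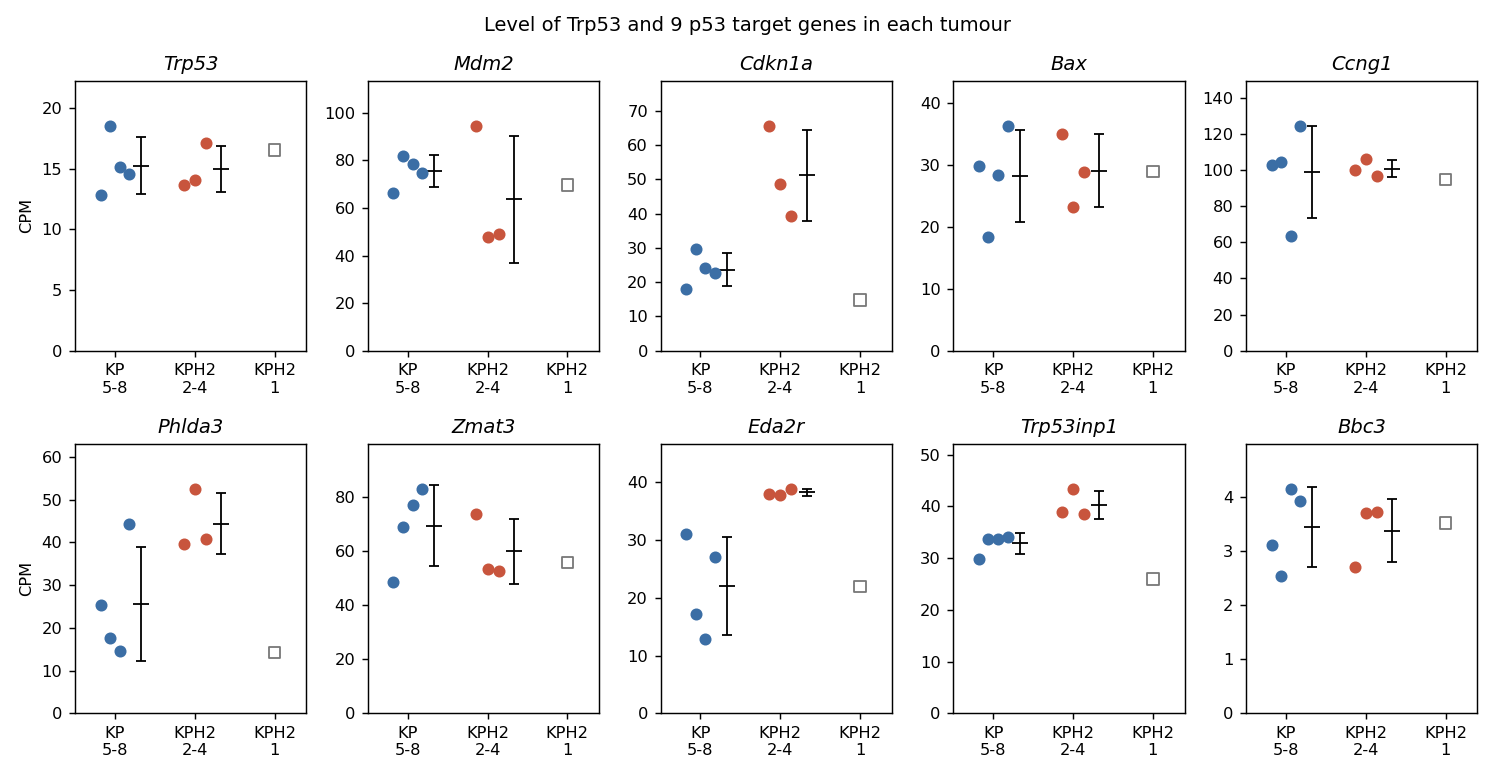
Level of each gene in each tumour, in CPM on a linear axis from 0, with 1 panel per gene. Blue circles are KP 5 to KP 8 and red circles KPH2 2 to KPH2 4 (bars: mean and SD), and the open square is KPH2 1. Cdkn1a, Eda2r and Trp53inp1 have their 3 red circles above all blue ones, with the square at or below the KP tumours' range or within it, and Trp53 lies between 12.8 and 18.5 CPM throughout.

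Trp53 (Entrez 22059, chr11:69580348-69591873, + strand) was at 12.8, 18.5, 15.1 and 14.6 CPM in KP 5 to KP 8 and at 13.7, 14.1 and 17.1 CPM in KPH2 2 to KPH2 4. KPH2 1 was at 16.5 CPM. The groups overlapped fully, and the highest tumour was 1.44-fold above the lowest, the smallest spread of the 10 genes. The means were 15.3 ± 2.38 CPM (SD, n = 4) and 14.97 ± 1.88 CPM (SD, n = 3), a log2 fold change of −0.03 (SE 0.20, edgeR adjusted p = 0.962). Including KPH2 1 it was 0.01 (SE 0.18, edgeR adjusted p = 0.985), so no direction can be given. A 2-sided exact permutation test of the mean log2 CPM gave p = 0.89 over 7 tumours and p = 0.94 over 8, where 0.029 is the smallest p that either design allows.

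Reads of Trp53 in these tumours do not by themselves mean intact Trp53. Cre removes the inner exons of the floxed allele and leaves the first and the last. In the RefSeq-paired transcripts, which have 11 exons, the first and last exon make up 680 of 1771 bases (38.4%) in one and 776 of 1867 bases (41.6%) in the other. The deposited counts are per gene and do not say which exons the reads came from, so RNA of host cells and RNA of the deleted allele cannot be told apart here. A processed pseudogene, Trp53-ps, also exists in the annotation, was not a row of the counts table, and could share reads with Trp53.

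Set side by side per kilobase of exon, the level of Trp53 was in the lower part of the group. In KP tumours the order by mean was Bax (32.4 ± 8.57 CPM per kb, SD, n = 4), Ccng1 (28.1 ± 7.24), Mdm2 (24.3 ± 2.17), Phlda3 (17.8 ± 9.28), Cdkn1a (11.6 ± 2.39), Zmat3 (8.89 ± 1.92), Trp53 (8.18 ± 1.28), Trp53inp1 (6.08 ± 0.375), Eda2r (4.64 ± 1.78) and Bbc3 (1.89 ± 0.408). The intervals of mean ± SD overlapped between neighbours in this order, except between Trp53 and Trp53inp1 and between Eda2r and Bbc3. In KPH2 2 to KPH2 4 Bax was again at the top with 33.4 ± 6.75 CPM per kb (SD, n = 3), but Phlda3 (30.9 ± 4.98) and Cdkn1a (25.1 ± 6.53) stood above Mdm2 (20.6 ± 8.61), and Eda2r (8.05 ± 0.120) was level with Trp53 (8.02 ± 1.01). In KPH2 1 Phlda3 was at 9.91 and Cdkn1a at 7.26 CPM per kb, both below Mdm2 at 22.5. These levels use the merged exon length of all RefSeq-paired transcripts of each gene.

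**Figure D2:**
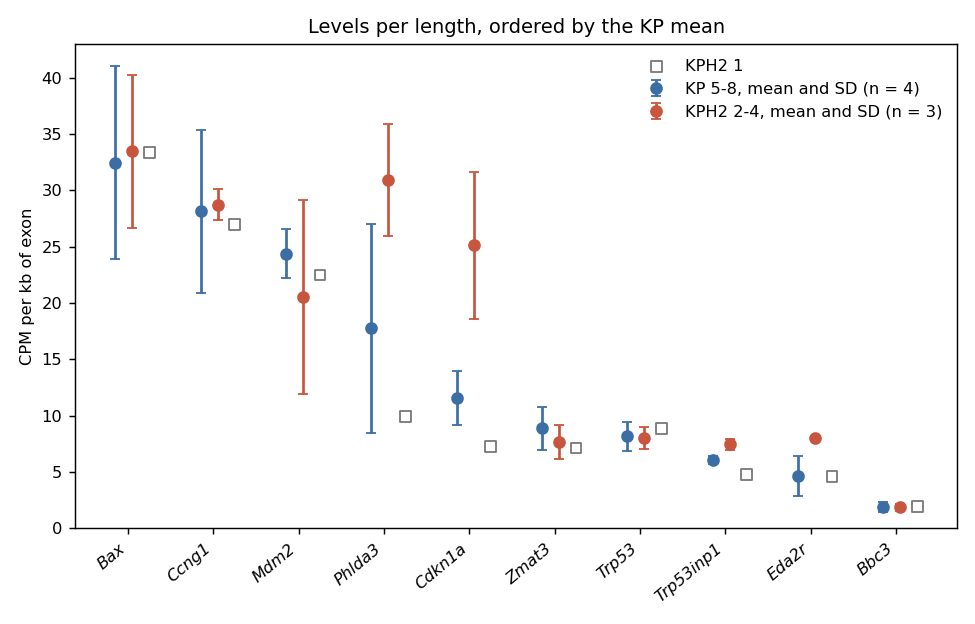
Level of the 10 genes per kilobase of exon (CPM per kb, linear axis from 0), ordered by the KP mean. Filled circles are means with SD for KP 5 to KP 8 (blue) and KPH2 2 to KPH2 4 (red), and open squares are KPH2 1. Bax is highest at 32.4 and Bbc3 lowest at 1.89 CPM per kb in KP tumours, and the gap between red and blue is widest for Cdkn1a and Phlda3.

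Cdkn1a (Entrez 12575, chr17:29090979-29100722, + strand), the cell-cycle brake p21 whose promoter site is printed above, had the largest difference of the 10. It was at 17.9, 29.7, 24.2 and 22.6 CPM in KP 5 to KP 8 and at 65.5, 48.5 and 39.3 CPM in KPH2 2 to KPH2 4. KPH2 1, at 14.8 CPM, was the lowest of all 8 tumours. The lowest of KPH2 2 to KPH2 4 was thus above the highest KP tumour, and KPH2 1 was below every KP tumour.

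The KP mean was 23.6 ± 4.87 CPM (SD, n = 4), and that of KPH2 2 to KPH2 4 was 51.1 ± 13.3 CPM (SD, n = 3). For Cdkn1a the log2 fold change was 1.12 (SE 0.23), with an edgeR adjusted p of 0.0515 that narrowly missed the threshold of 0.05, and a 2-sided exact permutation test gave p = 0.029, the smallest that the 35 splits allow. With KPH2 1 the mean of KPH2 was 42.0 ± 21.2 CPM (SD, n = 4), the log2 fold change was 0.84 (SE 0.39, edgeR adjusted p = 0.361) and the exact permutation test gave p = 0.2. Over 7 tumours the call was made by DESeq2 (log2 fold change 1.13, adjusted p = 0.00149), and by edgeR with upper-quartile scaling, without the low-count filter or without robust estimates, with adjusted p of 0.0488, 0.0374 and 0.0499. It was not made when any 1 of the 7 tumours was left out, where the edgeR adjusted p ran from 0.0603 to 0.162. The annotation places an antisense transcript, AC167363.2, over 1046 bases of Cdkn1a, and the strand setting of the counting is not given in the sources used here.

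Skeletal muscle markers were high in the same tumours as Cdkn1a. KPH2 3, 2 and 4 had the highest muscle marker scores (mean log2 CPM 7.18, 6.60 and 4.88), KP tumours lay between 3.24 and 4.40, and KPH2 1, lowest in Cdkn1a, was also lowest in this score at 3.22. Within the groups the order differed. KP 6 and KP 7 had the most Cdkn1a of the KP tumours (29.7 and 24.2 CPM) at the lowest scores (3.69 and 3.24). KP 5 and KP 8 had less Cdkn1a (17.9 and 22.6 CPM) at scores of 4.35 and 4.40. KPH2 2 was above KPH2 3 in Cdkn1a (65.5 against 48.5 CPM) and below it in the score. Once the score entered as a covariate, Cdkn1a had a log2 fold change of 0.94 (SE 0.47, edgeR adjusted p = 0.818) and 3 of all tested genes passed the threshold, against 292 without it. The part of muscle tissue in the difference was not tested further.

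The genes whose log2 CPM followed Cdkn1a most closely over the 8 tumours, among 11796 genes with a mean of at least 5 CPM, were Dapk2 (a death-associated protein kinase, Pearson r = 0.978), Popdc3 (a membrane protein of muscle, r = 0.974) and Bcar3 (r = 0.968). Trp53inp1 came 76th (r = 0.901), Phlda3 870th (r = 0.648) and Eda2r 1511th (r = 0.522), and Trp53 was 6613th with r = −0.108. These values are a description over 8 libraries that share their group structure.

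The factors that can act on Cdkn1a without p53 included the muscle regulators Myod1 and Myog, transcription factors that drive myoblasts out of the cell cycle. Myod1 was at 0.965, 4.67, 0.148 and 0.377 CPM in KP 5 to KP 8, at 18.6, 36.8 and 9.13 CPM in KPH2 2 to KPH2 4, and at 0.160 CPM in KPH2 1. Over 7 tumours its log2 fold change was 3.88 (SE 0.92, edgeR adjusted p = 0.0774). With KP 5, 7 and 8 under 1 CPM, Myod1 entered the test through the tumours where it is high, so a difference was bound to be seen. Myog was at 2.67, 14.4, 0.148 and 2.72 CPM in KP 5 to KP 8, at 60.5, 126 and 18.7 CPM in KPH2 2 to KPH2 4 and at 0.719 CPM in KPH2 1 (log2 fold change 3.82, SE 1.01, edgeR adjusted p = 0.105). For both genes KPH2 2, 3 and 4 were above every KP tumour and KPH2 1 was not, an order shared by 4.98% of tested genes. Over 7 tumours 3 of the 17 genes of this list were higher without overlap and 0 lower, beside 8.73% and 8.15% of tested genes. Foxo4, a forkhead factor, averaged 23.4 ± 0.513 CPM (SD, n = 4) over KP tumours and 34.8 ± 14.3 CPM (SD, n = 3) in KPH2 2 to KPH2 4, a log2 fold change of 0.57 (SE 0.25, edgeR adjusted p = 0.273). KPH2 1 was at 26.9 CPM of Foxo4. Of the 17 genes of this list 0 passed edgeR's adjusted threshold, 3 were higher at an unadjusted p under 0.05 and 0 lower, beside 1.96% of all tested genes past the adjusted threshold and 8.5% higher and 9.26% lower at the unadjusted one. DESeq2 called 2, Myod1 and Myog (7.2% of all genes it tested), and limma called 1, Myod1 (2.17%), and the median log2 fold change of the list was −0.02.

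Cell-cycle genes that p21 holds down through the DREAM complex (a repressor built on Rb-family proteins) overlapped between KP tumours and KPH2 2 to KPH2 4 in every case. Of 20 such genes 0 passed the threshold with edgeR, DESeq2 or limma, 0 passed an unadjusted p under 0.05 in edgeR, and the median log2 fold change was 0.03. Over all tested genes these shares were 1.96% (edgeR adjusted) and 17.8%, and 16.9% did not overlap. Their summed level was 1229 to 1811 CPM in KP tumours, 1449 to 1557 CPM in KPH2 2 to KPH2 4 and 1685 CPM in KPH2 1. Mki67, the proliferation marker Ki-67, averaged 388 ± 93.0 CPM (SD, n = 4) over KP tumours and 300.3 ± 52.3 CPM (SD, n = 3) over KPH2 2 to KPH2 4 (log2 fold change −0.37, SE 0.22, edgeR adjusted p = 0.432). KPH2 1 was at 419 CPM of Mki67, above the KP mean. The mitotic kinases Nek2 and Aurka had log2 fold changes of 0.31 (SE 0.18, edgeR adjusted p = 0.411) and 0.27 (SE 0.18, edgeR adjusted p = 0.493).

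Ccng1 (Entrez 12450, chr11:40748552-40755309, − strand) encodes cyclin G1, which brings a phosphatase to Mdm2, and is the other gene with a promoter site. It was at 103, 104, 63.6 and 124 CPM in KP 5 to KP 8, at 99.9, 106 and 96.5 CPM in KPH2 2 to KPH2 4, and at 94.7 CPM in KPH2 1. The KPH2 tumours lay close together inside the KP range, and the log2 fold change was 0.03 (SE 0.22, edgeR adjusted p = 0.965). Ccng1 and Cdkn1a thus both hold a promoter site, and their log2 fold changes were 0.03 and 1.12. The difference between them was not tested.

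Mdm2 (Entrez 17246, chr10:117688875-117710758, − strand), the ligase that degrades p53, was at 66.3, 81.9, 78.7 and 74.9 CPM in KP 5 to KP 8. It was at 94.5, 47.7 and 48.9 CPM in KPH2 2 to KPH2 4 and at 69.7 CPM in KPH2 1. KPH2 2 was thus the highest of the 8 tumours and KPH2 3 and 4 were the lowest. For Mdm2 the log2 fold change was −0.24 (SE 0.25, edgeR adjusted p = 0.67) over 7 tumours. It was −0.64 without KPH2 2, −0.07 without KPH2 3 and −0.08 without KPH2 4. Mdm4, the relative of Mdm2 that masks p53, had means of 74.5 ± 4.29 CPM (SD, n = 4) and 73.9 ± 6.34 CPM (SD, n = 3). For Mdm4 KPH2 1, at 97.6 CPM, was the highest of the 8 tumours.

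Phlda3 (Entrez 27280, chr1:135766085-135769134, + strand), which holds back the kinase Akt, and Zmat3 (Entrez 22401, chr3:32334792-32365665, − strand), which encodes an RNA-binding protein, are 2 further targets, and neither passed the test. Phlda3 was at 25.3, 17.7, 14.7 and 44.3 CPM in KP 5 to KP 8, at 39.6, 52.5 and 40.8 CPM in KPH2 2 to KPH2 4 and at 14.2 CPM in KPH2 1. KP 8 alone lay within the range of KPH2 2 to KPH2 4, and KPH2 1 was the lowest tumour. The log2 fold change was 0.79 (SE 0.36, edgeR adjusted p = 0.302) over 7 tumours, 0.52 (SE 0.45, edgeR adjusted p = 0.634) over 8, and 1.19 (SE 0.25, edgeR adjusted p = 0.0764) without KP 8. With the muscle score as a covariate it was 0.04 (edgeR adjusted p = 0.996). Zmat3 was at 48.6, 68.8, 76.8 and 82.9 CPM in KP 5 to KP 8, at 73.6, 53.4 and 52.4 CPM in KPH2 2 to KPH2 4 and at 55.6 CPM in KPH2 1. Its groups overlapped, with a log2 fold change of −0.21 (SE 0.22, edgeR adjusted p = 0.669).

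**Figure D3:**
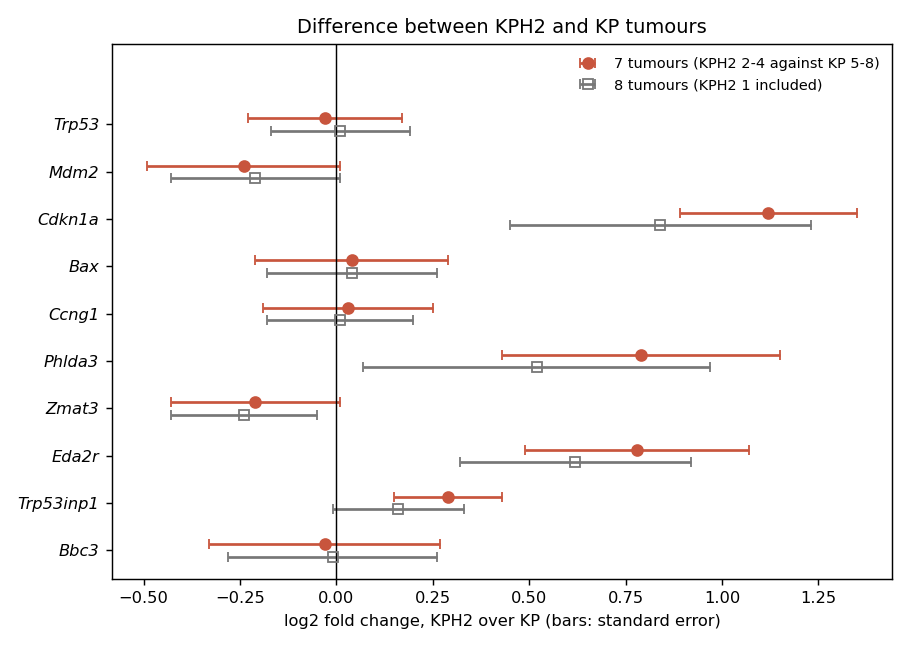
Log2 fold change of KPH2 over KP for the 10 genes, with standard errors as bars. Filled circles compare KPH2 2 to KPH2 4 with KP 5 to KP 8, and open squares include KPH2 1. Cdkn1a is farthest from 0 at 1.12 and 0.84, Eda2r and Phlda3 follow, and no gene passed the edgeR adjusted threshold.

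Eda2r, Trp53inp1, Bax and Bbc3 are linked to cell death. Eda2r (Entrez 245527, chrX:97333837-97377234, − strand), a receptor of the tumour necrosis factor family that binds ectodysplasin A2, was at 31.1, 17.1, 12.9 and 27.1 CPM in KP 5 to KP 8. It was at 38.0, 37.8 and 38.9 CPM in KPH2 2 to KPH2 4, a spread of 0.569 CPM (SD, n = 3) beside 8.48 CPM (SD, n = 4) in KP, and at 21.98 CPM in KPH2 1. KPH2 2, 3 and 4 were above every KP tumour and KPH2 1 was inside the KP range. For Eda2r the log2 fold change was 0.78 (SE 0.29, edgeR adjusted p = 0.204) over 7 tumours and 0.62 (SE 0.30, edgeR adjusted p = 0.375) over 8. With the muscle score as a covariate it was 0.33 (edgeR adjusted p = 0.966).

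Trp53inp1 (Entrez 60599, chr4:11156441-11174379, + strand), a nuclear protein that aids p53 and autophagy under stress, was at 29.9, 33.7, 33.8 and 34.2 CPM in KP 5 to KP 8, at 38.9, 43.4 and 38.5 CPM in KPH2 2 to KPH2 4 and at 26.0 CPM in KPH2 1. As with Cdkn1a, KPH2 2, 3 and 4 were above every KP tumour and KPH2 1 was below every KP tumour. This order was shared by 245 of the 14867 tested genes, or 1.65%. For Trp53inp1 the log2 fold change was 0.29 (SE 0.14, edgeR adjusted p = 0.312) over 7 tumours and 0.16 (SE 0.17, edgeR adjusted p = 0.719) over 8.

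Bax (Entrez 12028, chr7:45461695-45466903, − strand), which opens the outer mitochondrial membrane, was at 29.7, 18.3, 28.3 and 36.2 CPM in KP 5 to KP 8, at 34.9, 23.2 and 28.9 CPM in KPH2 2 to KPH2 4 and at 28.9 CPM in KPH2 1. Bbc3 (Entrez 170770, chr7:16308398-16318334, + strand), which encodes Puma, a protein that frees Bax from its inhibitors, was at 3.12, 2.55, 4.15 and 3.92 CPM in KP 5 to KP 8, at 2.70, 3.70 and 3.72 CPM in KPH2 2 to KPH2 4 and at 3.52 CPM in KPH2 1. Both overlapped fully between the groups, with log2 fold changes of 0.04 (SE 0.25, edgeR adjusted p = 0.957) and −0.03 (SE 0.30, edgeR adjusted p = 0.972). Bbc3 rested on few reads, down to 18 in a tumour. Bax shares 915 bases with Gm45808 on the same strand. Gm45808 was not a row of the counts table, so reads of the shared bases could have been counted to Bax.

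The other members of the BCL2 family, which set the threshold for Bax, were followed as a list. Of 13 tested genes 0 passed the adjusted threshold with edgeR, DESeq2 or limma, and at an unadjusted p under 0.05 in edgeR 1 was higher and 1 lower, beside 1.96% of all tested genes past the adjusted threshold and 8.5% and 9.26% at the unadjusted one. The higher one was Bcl2, an inhibitor of cell death, with 37.1 ± 8.10 CPM (SD, n = 4) over KP tumours and 64.0 ± 16.8 CPM (SD, n = 3) in KPH2 2 to KPH2 4 (log2 fold change 0.78, SE 0.24, edgeR adjusted p = 0.136). KPH2 1, at 43.9 CPM of Bcl2, was inside the KP range. The lower one was Mcl1, another inhibitor, with 292 ± 77.1 CPM (SD, n = 4) and 188 ± 27.4 CPM (SD, n = 3) (log2 fold change −0.64, SE 0.23, edgeR adjusted p = 0.205). KPH2 1 was at 194 CPM of Mcl1. Bok, a relative of Bax, had a log2 fold change of 0.68 (SE 0.35, edgeR adjusted p = 0.361).

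Of 40 further p53 targets 38 were tested, and 1 passed the adjusted threshold, beside 1.96% of all tested genes in either direction and 0.72% lower: Dram1, a lysosomal membrane protein of p53-linked autophagy, fell in KPH2. It was at 27.6, 38.8, 32.5 and 39.996 CPM in KP 5 to KP 8, at 15.9, 14.2 and 19.4 CPM in KPH2 2 to KPH2 4 and at 17.02 CPM in KPH2 1. All 4 KPH2 tumours, KPH2 1 included, were below every KP tumour. The log2 fold change was −1.07 (SE 0.20, edgeR adjusted p = 0.0386) over 7 tumours and −1.06 (SE 0.17, edgeR adjusted p = 0.1) over 8, where 1 gene in all passed. The call was lost when any 1 of the 7 tumours other than KP 5 was left out, with edgeR adjusted p of 0.0872, 0.0772 and 0.0785 without KP 6, 7 and 8 and of 0.137, 0.112 and 0.0624 without KPH2 2, 3 and 4. Over these 7 settings the log2 fold change ran from −1.20 to −0.97. With the muscle score as a covariate it was −0.76 (SE 0.36, edgeR adjusted p = 0.783). The macrophage and endothelial sums given above were also lower on average in the KPH2 tumours, and their part in the level of Dram1 was not tested.

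Pank1, a kinase of coenzyme A synthesis, was at 5.20, 6.37, 5.19 and 6.11 CPM in KP 5 to KP 8, at 11.7, 11.3 and 10.4 CPM in KPH2 2 to KPH2 4 and at 7.35 CPM in KPH2 1. Every KPH2 tumour was above every KP tumour, as for 3.76% of tested genes over all 8 tumours. For Pank1 the log2 fold change was 0.96 (SE 0.20, edgeR adjusted p = 0.0567). DESeq2 and limma called it over 7 tumours, where they called 7.2% and 2.17% of all genes tested in either direction. Apaf1, the scaffold on which caspases are activated after Bax has acted, had means of 138 ± 18.3 CPM (SD, n = 4) and 88.1 ± 18.7 CPM (SD, n = 3), a log2 fold change of −0.65 (SE 0.19, edgeR adjusted p = 0.121). KPH2 1, at 121 CPM of Apaf1, was inside the KP range. At an unadjusted p under 0.05, 2 of the 38 were higher and 6 lower, beside 8.5% and 9.26% of all tested genes. Over all 8 tumours, 2 of the 38 were higher and 3 lower without overlap, beside 3.76% and 4.39% of tested genes. In the list 16 had a positive and 22 a negative log2 fold change, and the median was −0.07.

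The genes that set the activity of p53 were tested as a list of 23, of which 22 passed the filter and 0 passed the adjusted threshold in edgeR. The median log2 fold change was 0.01, and at an unadjusted p under 0.05 2 were higher and 0 lower, beside 8.5% and 9.26% of all tested genes and 1.96% past the adjusted threshold. Trp63, the p53 relative best known from epithelia, was at 0.371, 0.990, 0.445 and 0.151 CPM in KP 5 to KP 8 and at 3.42, 4.10 and 1.69 CPM in KPH2 2 to KPH2 4, with no read among the 13080056 counts of KPH2 1. Its log2 fold change over 7 tumours was 2.73 (SE 0.58, edgeR adjusted p = 0.0575), and DESeq2 called it. With every KP tumour under 1 CPM, Trp63 entered the test through the tumours where it is high, so a difference was bound to be seen. Ppp1r13l, an inhibitor of p53, had a log2 fold change of 0.72 (SE 0.30, edgeR adjusted p = 0.266), and Trp53bp1, a DNA damage protein that binds p53, one of 0.37 (SE 0.17, edgeR adjusted p = 0.298). Cdkn2a, whose Arf product restrains Mdm2, averaged 151 ± 55.4 CPM (SD, n = 4) over KP tumours and 183 ± 19.2 CPM (SD, n = 3) in KPH2 2 to KPH2 4 (log2 fold change 0.27, SE 0.31, edgeR adjusted p = 0.705). KPH2 1 was at 179 CPM of Cdkn2a.

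**Figure D4:**
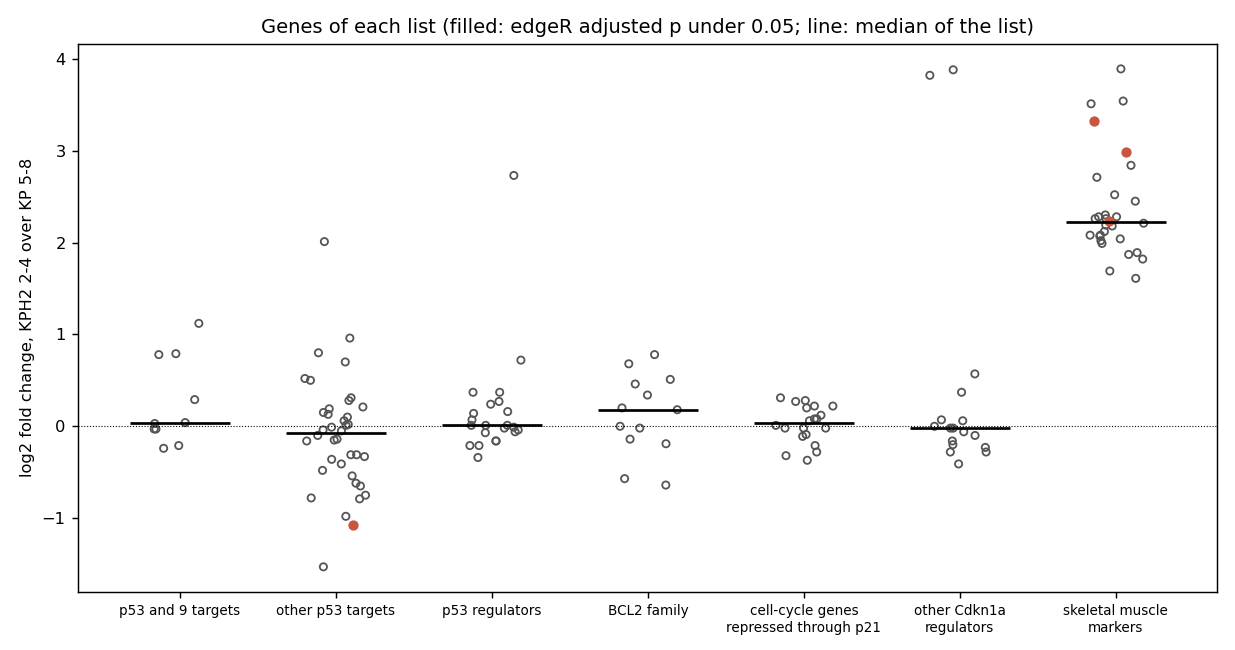
Log2 fold change of KPH2 2 to KPH2 4 over KP 5 to KP 8 for each tested gene of 7 lists. Points are genes, filled where the edgeR adjusted p was under 0.05, and the thick line is the median of the list. The medians of the p53 lists lie near 0 (0.03 for the 10 genes, −0.07 for other targets, 0.01 for regulators), while all muscle markers lie above 0 with a median of 2.22.

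Whether the targets followed Trp53 from tumour to tumour was examined for the 6 whose groups overlapped, since the tumours of Cdkn1a, Eda2r and Trp53inp1 form separate clusters. Over the 8 tumours Pearson r with Trp53 on log2 CPM was −0.04 for Mdm2, −0.57 for Bax, −0.10 for Ccng1, −0.40 for Phlda3, 0.06 for Zmat3 and −0.12 for Bbc3. Spearman rho was 0.10, −0.55, −0.24, −0.33, 0.12 and 0.05 in the same order. The smallest exact permutation p was 0.138, for Bax, and 0.83 after Benjamini-Hochberg adjustment over the 6 relations. The exact permutation p was 0.914 for Mdm2, 0.828 for Ccng1, 0.308 for Phlda3, 0.88 for Zmat3 and 0.771 for Bbc3. Without the 2 tumours farthest from the median of Trp53, r was −0.42, −0.18, −0.21, −0.42, −0.53 and 0.38. Over the 7 tumours without KPH2 1, r was −0.05, −0.61, −0.08, −0.32, 0.14 and −0.15, and without the 2 farthest of those it was 0.10, −0.04, −0.44, −0.22, 0.73 and 0.78. Leaving out KPH2 1 alone changed no sign, while leaving out the 2 farthest tumours as well or instead changed that of Mdm2, Zmat3 or Bbc3, with 5 or 6 tumours left. The genes most like Trp53 in pattern were Mterfd1 (r = 0.922), Sec23b (r = 0.921) and Lrrc40 (r = 0.913), given as a description.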

How the data were processed

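Total RNA from FFPE sections of 8 hind limb UPS tumours (4 KP, 4 KPH2, with a further allele common to both groups that is not reported here) was freed of ribosomal RNA before stranded library preparation and sequencing. The authors aligned reads to GRCm38 with STAR 2.4 and deposited raw counts of unique alignments per RefSeq gene from htseq-count (HTSeq 0.6.1). Regularized log2 values made by the authors with DESeq2 1.6, over 7 and over 8 tumours, were also deposited and were tested with limma 3.58.1 as an alternative. Columns of other samples in these tables numbered 0.

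The counts were fitted with edgeR 4.0.16 under R 4.3.3 (TMM, low-count filter with minimum count 10 and minimum total 15, robust quasi-likelihood fit, no covariate), as KPH2 2 to KPH2 4 against KP 5 to KP 8, with all 8 tumours as an alternative. p-values were adjusted by the Benjamini-Hochberg method across every tested gene (threshold 0.05), and the SE is the log2 fold change divided by the root of the F statistic. All 10 genes passed the filter. The biological coefficient of variation was 0.313. CPM per tumour used TMM library sizes over all 8 libraries, log2 CPM a prior count of 2, and the fits their own TMM factors. Each library is a separate tumour, so p-values measure the spread between tumours, and read depth (6463221 to 13155510 counts) limits Bbc3 most. Exact permutation tests were 2-sided.

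The 10 genes and all lists were chosen with earlier results of these data known. Named beside the 10 were Epas1, the called genes of each list (where under 3 passed, for the lists other than cell type markers, the genes with the smallest p up to 3), and the 3 genes most like Trp53 and Cdkn1a in pattern. Mdm4 and Cdkn2a were named after their values were seen. Alternatives were DESeq2 1.42.0 size factors, upper-quartile factors, no filter, a mean count of at least 50, each tumour left out, the muscle marker score as covariate, no robust estimates, DESeq2 with and without a prior and over all 8 tumours, and limma. Scripts were tested on simulated data. Gene positions and promoters are from RefSeq, GRCm38.p6.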

Additional observations from a re-analysis of the deposited data

Results flagged for a closer look

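In groups of 4 tumours, a tumour was picked out where its gap to the nearest other tumour, divided by the range of the group, was above the 95% critical value of Dixon's test. Of the 20 combinations of gene and group, 3 met this, where chance gives about 1 in 20. Zmat3 in KPH2 2, at 73.6 CPM, was above the other KPH2 tumours (52.4 to 55.6 CPM), with a ratio of 0.848. Eda2r in KPH2 1, at 21.98 CPM, was below the other KPH2 tumours (37.8 to 38.9 CPM), with a ratio of 0.938. Trp53inp1 in KP 5, at 29.9 CPM, was below the other KP tumours (33.7 to 34.2 CPM), with a ratio of 0.881.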

How the results depend on the processing

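No paired analysis was possible because the groups share no replicate number (KP 5 to KP 8, KPH2 1 to KPH2 4). Mdm2, Phlda3, Zmat3, Eda2r and Trp53inp1 kept their direction and stayed outside the adjusted threshold in all 18 alternatives. The log2 fold change of Trp53 (−0.03) was 0.01 over all 8 tumours, 0.02 with DESeq2 over all 8, 0.33 with the muscle score as a covariate and −0.13 to 0.08 leaving out each tumour, and its exact permutation p over 8 tumours was 0.94. With the muscle score Bax was −0.07, Ccng1 −0.38 and Bbc3 0.10, and leaving out each tumour gave −0.12 to 0.18, −0.13 to 0.16 and −0.15 to 0.11. Bbc3 was not tested at a mean count of at least 50. Cdkn1a passed the threshold, so that the count of higher members was 1 in place of 0, with upper-quartile factors (1.11), no filter (1.13), no robust estimates (1.12) and DESeq2 without (1.13) and with (1.05) a prior. It ran from 0.90 to 1.28 leaving out each tumour, and its adjusted p ran from 0.00149 to 0.818 over all alternatives. Its exact permutation p over 8 tumours was 0.2. The count of lower members was 0 throughout.

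The count of other p53 targets called (1, Dram1) was 0 over all 8 tumours and with the muscle score, 2 with DESeq2 without a prior, with a prior and over all 8 tumours and with limma (Dram1 and Pank1 each time), and 0 to 2 leaving out each tumour. Of the p53 regulators 1 was called (Trp63) without the filter and with DESeq2 with and without a prior. Of the factors acting on Cdkn1a without p53, 2 were called by DESeq2 without a prior, 1 with a prior, 1 by limma, and 0 to 1 leaving out each tumour. The BCL2 family and the cell-cycle genes repressed through p21 stayed at 0 in all 18. All tested genes past the threshold numbered 292, beside 1 over all 8 tumours, 3 with the muscle score, 1175 and 1169 with DESeq2 without and with a prior, 648 with DESeq2 over all 8, and 55 without KPH2 2. The cause of these changes was not tested.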
